A study of Homo sapiens with 6 samples.

Results

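The 49 genes described here encode the DNA replication machinery. They were taken by name from the deposited table: proteins that license replication origins, subunits of the replicative helicase, polymerases, the sliding clamp and its loader, enzymes that join the new strands, suppliers of nucleotides, and proteins that restore chromatin behind the fork. Each name matched 1 of the 64253 Ensembl identifiers, and all 49 members passed the filter on low counts, so that they stand among the 16091 genes tested. The smallest count of any member in any library was 309. RNA came from NCI-H1299 cells, an established line labelled as lung adenocarcinoma. There were 3 libraries of wild type cells and 3 of cells overexpressing MTSS1, a membrane-binding scaffold protein, from an mCherry-tagged plasmid, after hygromycin selection and flow sorting. The labels name no control plasmid, so that the MTSS1 transgene, the tag, the selection and the sorting cannot be told apart. Nothing in the labels says that the replicates were separate cultures, and the p-values reflect only how far these libraries differ among themselves.

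A cell prepares an origin in G1, when the origin recognition complex (ORC1 to ORC6) with CDC6 and CDT1 loads the ring of MCM2 to MCM7 onto DNA, and geminin (GMNN) later blocks CDT1 so that no origin is loaded again. In S phase CDC45 and the GINS proteins join the ring and make it an active helicase, primase and the polymerases copy the strands, and PCNA, loaded by the RFC complex, holds the polymerases on DNA. Transcription of many of these genes rises before S phase under E2F factors, so their RNA level in a growing culture is commonly read with the share of cycling cells. In these bulk samples, a different share of cells in S phase and a different amount of RNA per cell cannot be told apart.

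The libraries held between 13883380 and 29479453 counts. MTSS1 stood between 18.0 and 24.3 CPM (read counts relative to library size, scaled with edgeR's TMM factors, the level used throughout) in wild type libraries and between 544 and 568 CPM in overexpressing libraries, which fits the labels. Over all genes 688 of 16091 passed edgeR's quasi-likelihood test at an adjusted p under 0.05. Summed epithelial markers (KRT8, KRT18, EPCAM, CDH1) lay between 568 and 849 CPM in wild type and between 254 and 465 CPM in overexpressing libraries. KRT8 and KRT18 made up nearly all of this sum. EPCAM lay between 0.397 and 0.638 CPM in wild type and, in the other direction, between 0.807 and 0.955 CPM in overexpressing libraries. CDH1 had at most 4 counts in any library. Summed mesenchymal markers (VIM, FN1, CDH2) lay between 4369 and 4596 and between 4707 and 4933 CPM, nearly all of it VIM. The summed lung adenocarcinoma lineage markers (NKX2-1, NAPSA, SFTPB, SFTPC) came to at most 1.75 CPM in wild type libraries and 3.16 CPM in overexpressing libraries, with SFTPB listed at 0 in all 6. Summed leukocyte markers (3 genes) lay between 1.54 and 2.31 CPM in wild type and between 0.807 and 2.23 CPM in overexpressing libraries, and endothelial markers (3 genes) between 0.689 and 2.36 and between 0.499 and 0.680 CPM. The labels mention HEK293T cells, and of the genes listed for that line PAX2 had at most 5 counts in any library, NEFL lay between 3.21 and 6.08 CPM in wild type and between 2.96 and 5.64 CPM in overexpressing libraries, and NEFM between 3.24 and 6.31 and between 4.38 and 6.36 CPM. The part of these markers in the results was not tested.

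The library titles carry numbers, and a wild type library is followed by an overexpressing one 3 times: 02 and 03 (pair 1), 09 and 10 (pair 2), 12 and 13 (pair 3). The labels do not say what neighbouring numbers share. Members are therefore given from the comparison of 3 against 3 libraries, and where named "with the block" from the same test with the title pair as a block, which compares the libraries within each pair.

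Most replication genes had a slightly higher mean in MTSS1-overexpressing cells, and for 48 of the 49 the difference did not pass the test against the spread between replicates. Of the 49 members, 1 was higher (MCM7) and none was lower (edgeR adjusted p under 0.05), a share of 2.04% against 4.28% of all tested genes, of which 1.82% were higher and 2.45% lower. Before adjustment, 15 members were higher and 1 lower at p under 0.05 (32.7% of the members in either direction against 19.8% of all tested genes, of which 9.15% were higher and 10.7% lower). With DESeq2 6 were higher (MCM7, MCM10, MCM2, POLD2, RFC2 and RPA1) and again none lower, where 3.25% of all tested genes were higher and 4.12% lower. The members' median log2 fold change was 0.19, against 0.0046 for all tested genes, and 37 of the 49 values were above 0. Without wild type replicate 2 this median was 0.091.

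Within the title pairs the direction was shared by more members. The level was higher in the overexpressing library of all 3 pairs for 32 members (65.3%; 26.9% of all tested genes) and lower in all 3 for 4 members, ORC3, ORC4, RFC1 and POLD3 (8.16%; 27% of all tested genes). With the title pair as a block 27 members were higher and 1 lower, 55.1% and 2.04% of the 49, where 10.7% of all tested genes were higher and 12% lower. Among the 7408 tested genes within the members' range of mean CPM these shares were 15.1% and 17.7%. The members share the same 6 libraries and move together in them, so 27 calls are not 27 separate observations. With 1 title pair left out the block gave 14 members higher (without pair 1), 26 (without pair 2) and 17 (without pair 3). Of all tested genes 3.89%, 15.6% and 7.46% were higher in these fits. In all of these fits 14 members were called higher (CDT1, CHAF1A, GINS2, MCM10, MCM2, MCM4, MCM7, POLD2, PRIM1, RFC2, RPA1, RRM2, TK1 and UHRF1). A gene called in all of them is also called without pair 1, so the share of all genes cannot exceed 3.89%. These fits share title pairs and each has 1 residual degree of freedom, so they are not separate checks. Without pair 2 the block also gave 6 members lower (ORC3, ORC4, POLA2, POLD3, RFC1 and TYMS; 17.2% of all tested genes), and POLD3 was not called without pair 1. Set against their 50 nearest tested genes, 17 members were higher with the block and none lower (7.08% and 8.24% of all tested genes), and CDC6, GMNN, CDC45, GINS1, GINS2, MCM8, PCNA, RFC2, POLE, RRM1 and POLD3 were no longer called. All 49 values with their standard errors stand beside the ratios of the 3 pairs in the plot of fold changes.

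**Figure D1:**
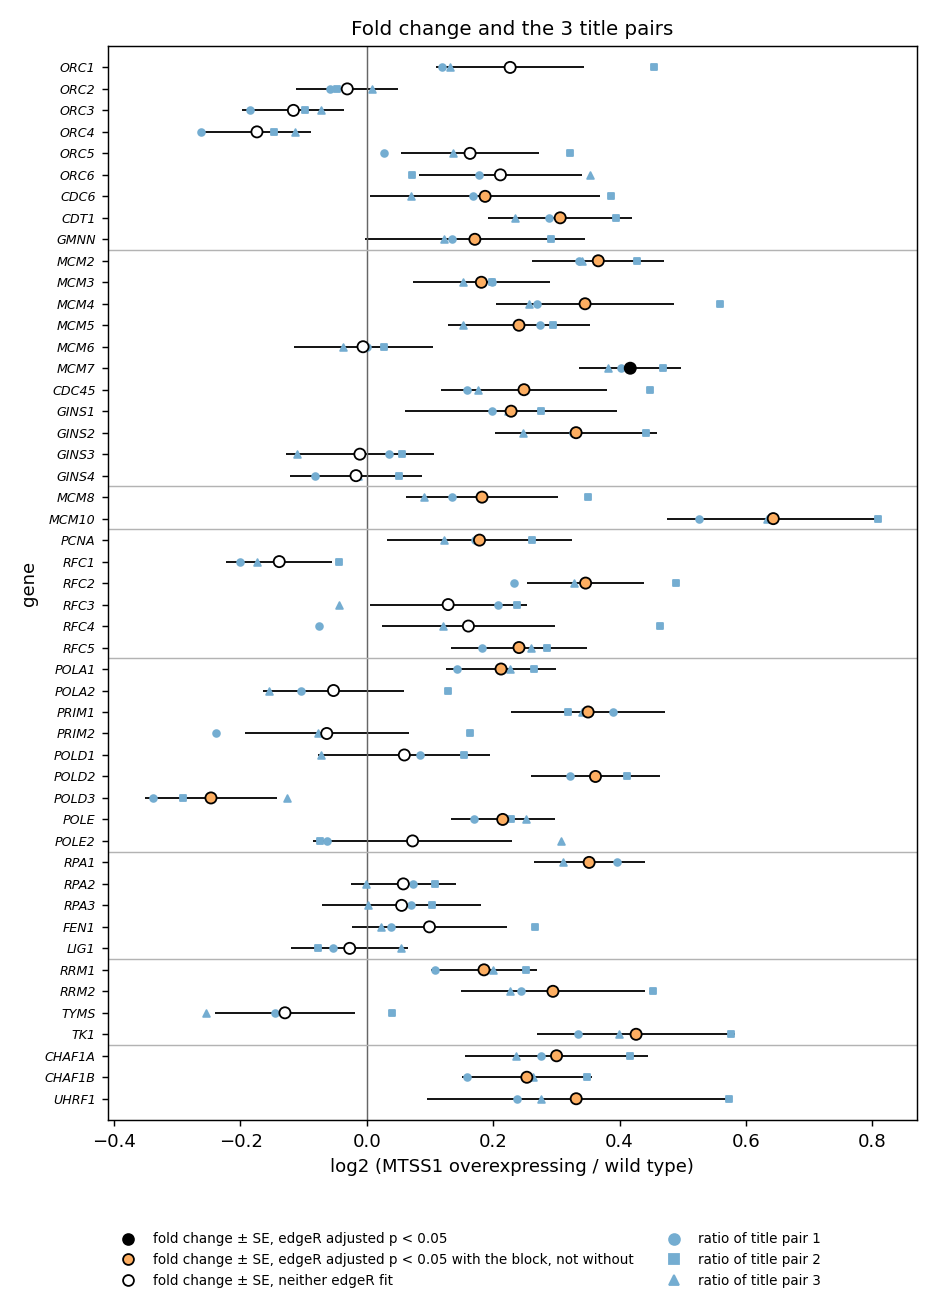
Log2 fold change of each of the 49 members with its standard error (large points) and the log2 ratio within each title pair (small blue symbols), ordered by role. MCM7 is the filled black point, the 27 other coloured points (26 higher, POLD3 lower) passed edgeR with the title pair as a block and not without it, and the pair 2 ratio is the highest of the 3 in 39 members.

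The helicase held the only member that passed edgeR without the block when all 6 libraries and the filter on low counts were used. MCM7 (ENSG00000166508, chromosome 7, 100092728 to 100101940, GRCh38, minus strand) encodes one of the 6 ring subunits and had the highest level per kilobase of exon of all members, 216 CPM per kb. Its level was 855, 774 and 805 CPM in wild type replicates 1 to 3 and 1131, 1070.0 and 1049 CPM in overexpressing replicates 1 to 3. The groups did not overlap, and the lowest overexpressing library stood above the highest wild type library. The fold was 1.34 (log2 fold change 0.42 with SE 0.08, edgeR adjusted p = 0.024; 7.6e-05 with the block). The call was lost whichever of the 6 libraries was left out (edgeR adjusted p up to 0.094) and against its 50 chromosomal neighbours (edgeR adjusted p = 0.052). Part of the MCM7 exons (8.9%) overlaps AP4M1 on the opposite strand, and the strand setting of the counting is not given in the sources used here. AP4M1 stood at 32.0 ± 2.71 and 32.8 ± 2.32 CPM (SD, n = 3), far below MCM7.

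The 250 bases before 1 of the 3 start sites that RefSeq (GRCh38.p14) lists for MCM7, chosen because it is the one with an E2F-type match, are shown because this was the member that passed the test, and those of MCM10 because it had the largest fold of the 49. Both are written 5′ to 3′ on the strand of the gene. Capitals mark the E2F-type sequence TTTCGCGC and the CCAAT box, which reads ATTGG where it lies on the other strand.
MCM7, chr7:100101398-100101647, minus strand: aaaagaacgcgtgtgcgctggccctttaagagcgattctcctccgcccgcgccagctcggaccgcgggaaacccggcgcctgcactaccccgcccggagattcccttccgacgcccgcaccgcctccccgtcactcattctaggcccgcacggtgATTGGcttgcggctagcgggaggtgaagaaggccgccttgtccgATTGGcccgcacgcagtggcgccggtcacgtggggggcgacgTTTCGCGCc
MCM10, chr10:13161308-13161557, plus strand: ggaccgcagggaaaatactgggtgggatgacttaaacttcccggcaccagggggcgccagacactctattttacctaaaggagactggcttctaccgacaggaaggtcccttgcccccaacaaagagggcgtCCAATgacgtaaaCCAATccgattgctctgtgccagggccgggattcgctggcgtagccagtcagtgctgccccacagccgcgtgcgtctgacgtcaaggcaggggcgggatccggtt
The MCM7 stretch holds 1 E2F-type match and 2 CCAAT boxes, while those before its other start sites hold 0 E2F-type matches and 1 CCAAT box each, and the MCM10 stretch holds 2 CCAAT boxes and no match to the E2F-type letters searched.

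The other ring subunits spread over a range of folds. MCM2 stood at 273, 223 and 228 CPM in wild type and at 344, 300.03 and 289 CPM in overexpressing libraries (log2 fold change 0.37 with SE 0.10, edgeR adjusted p = 0.087; 3.0e-04 with the block). MCM4 stood at 698, 481 and 683 CPM and at 841, 708 and 817 CPM (log2 fold change 0.35 with SE 0.14, edgeR adjusted p = 0.21; 0.0014 with the block). In neither gene did the groups overlap, but wild type replicate 2 lay well below the other wild type libraries in MCM4. MCM3 and MCM5 had log2 fold changes of 0.18 and 0.24 with overlapping groups, and passed with the block (edgeR adjusted p = 0.013 and 0.0061) but not without it (0.41 and 0.28). MCM6 showed almost no difference. Its level was 243, 211 and 269 CPM in wild type libraries and 243, 215 and 262 CPM in overexpressing libraries, almost the same in each pair, with a log2 fold change of -0.01 (with SE 0.11, edgeR adjusted p = 0.98; 0.96 with the block). The difference between MCM6 and the other subunits was not tested.

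CDC45 and the 4 GINS subunits, which turn the loaded ring into a moving helicase, had log2 fold changes from -0.02 to 0.33. GINS2 stood at 51.1, 39.3 and 52.8 CPM in wild type and at 64.0, 53.5 and 62.7 CPM in overexpressing libraries, with no overlap (log2 fold change 0.33 with SE 0.13, edgeR adjusted p = 0.19; 0.0034 with the block). CDC45 and GINS1 had log2 fold changes of 0.25 and 0.23 and passed with the block (edgeR adjusted p = 0.018 and 0.027) but not without it (0.34 and 0.52). GINS3 and GINS4 had log2 fold changes of -0.01 and -0.02 (SE 0.12 and 0.10) and passed neither without the block (edgeR adjusted p = 0.97 and 0.95) nor with it (0.95 and 0.91). In all, 8 of the 11 helicase genes were higher with the block (72.7%; 10.7% of all tested genes). All 11 had their lowest wild type level in replicate 2 (36.5% of all tested genes), and their median log2 fold change was 0.24.

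**Figure D2:**
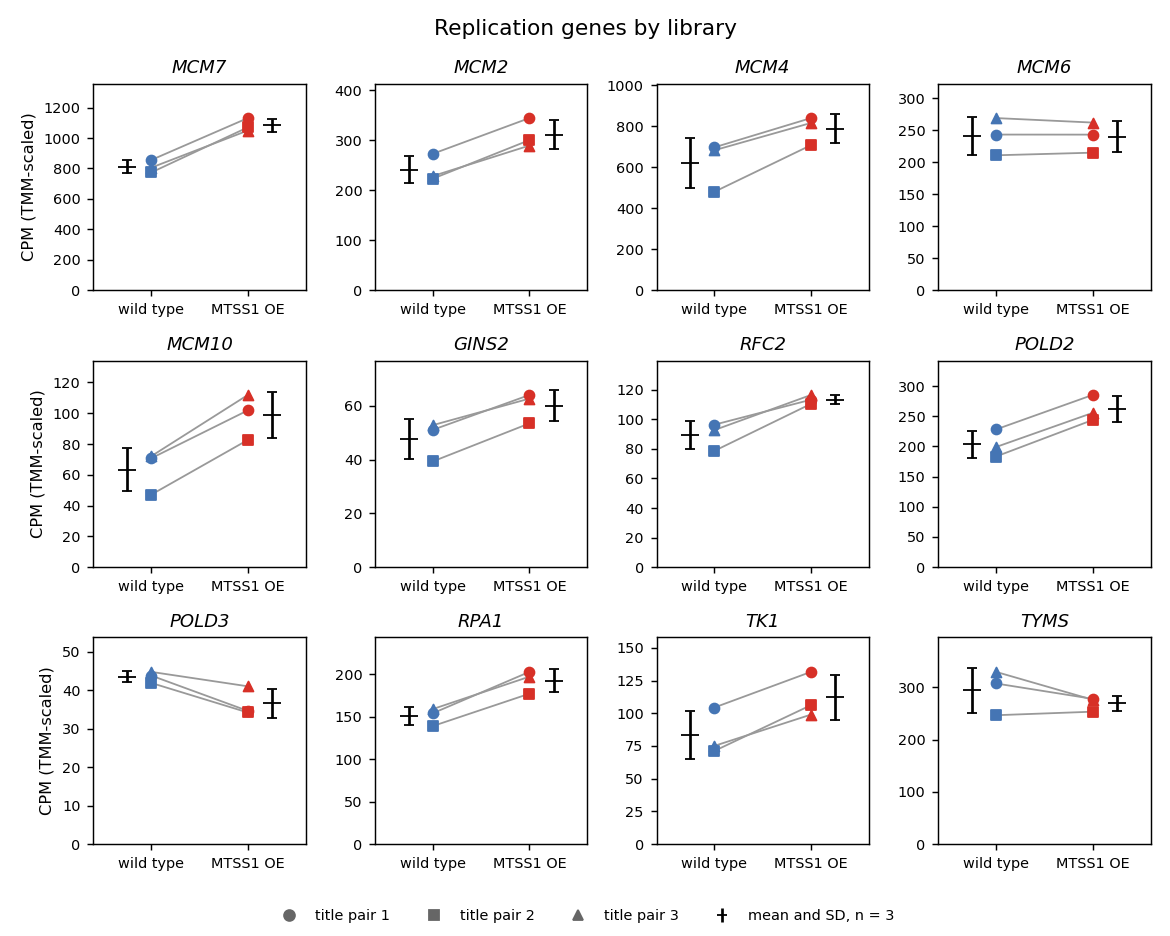
TMM-scaled CPM of 12 members in each library, wild type on the left and MTSS1 overexpressing (OE) on the right of each panel, with grey lines joining the title pairs and black bars giving the mean and SD of 3 libraries. MCM7 lies between 774 and 855 CPM in wild type and between 1049 and 1131 CPM in overexpressing libraries, while the lines of MCM6 are nearly level and those of POLD3 slope down.

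MCM10 and MCM8 share the family name but are no part of the ring of MCM2 to MCM7. MCM10, which helps activate the helicase, stood at 70.7, 47.1 and 72.1 CPM in wild type and at 102, 82.6 and 112 CPM in overexpressing libraries. Every overexpressing library was above every wild type library, and the fold of 1.56 was the largest of the 49 members. It did not pass edgeR without the block (log2 fold change 0.64 with SE 0.17, edgeR adjusted p = 0.065; 6.5e-05 with the block), but passed DESeq2 (adjusted p = 0.0022) and edgeR with no filter on low counts (adjusted p = 3.1e-07). MCM10 itself passes that filter, and without it 1489 of 28676 genes were called, against 688 of 16091 with it. MCM10 lies on chromosome 10 (13161554 to 13211104) and the median log2 fold change of its 50 nearest tested genes was 0.32, the highest such value among the members. Set against these neighbours its log2 fold change was 0.32 (edgeR adjusted p = 0.42; 0.0057 with the block as well). MCM8, a helicase of DNA repair, had a log2 fold change of 0.18 and passed with the block (edgeR adjusted p = 0.046) but not without it (0.46).

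Of the 9 origin licensing genes none passed the test without the block (4.28% of all tested genes) or with DESeq2 (3.25% higher and 4.12% lower). Before adjustment 1 of them was higher (11.1%; 9.15% of all tested genes). CDT1, the loader of the MCM ring and the licensing gene with the smallest adjusted p, stood at 136, 111 and 111 CPM in wild type and at 166, 146 and 131 CPM in overexpressing libraries. The ranges overlapped, since wild type replicate 1 was above overexpressing replicate 3 (log2 fold change 0.31 with SE 0.11, edgeR adjusted p = 0.17; 0.0019 with the block). CDC6, the partner of CDT1 in loading, and GMNN, its inhibitor, had log2 fold changes of 0.19 and 0.17 and were higher with the block (edgeR adjusted p = 0.046 and 0.040) but did not pass without it (0.64 and 0.67).

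The 6 ORC subunits bind the origins. Their log2 fold changes lay between -0.17 (ORC4) and 0.23 (ORC1), and none passed either fit. No member of the complex was under 0.05 before adjustment (19.8% of all tested genes) or with DESeq2 (3.25% higher and 4.12% lower). ORC1 was above every wild type library in all 3 overexpressing libraries, at 42.7, 41.1 and 40.8 CPM against 39.3, 29.97 and 37.3 CPM in wild type, and did not pass without the block (edgeR adjusted p = 0.33) or with it (0.057). ORC4 was the reverse, with 57.2, 52.3 and 55.4 CPM in wild type libraries and 47.7, 47.2 and 51.2 CPM in overexpressing libraries (edgeR adjusted p = 0.31; 0.072 with the block). Both genes were picked out here after their values were seen.

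PCNA, the ring that tethers polymerases to DNA, had the highest level per kilobase of the clamp genes, 115 CPM per kb. It stood at 177, 126 and 174 CPM in wild type and at 199, 151 and 190.0 CPM in overexpressing libraries, so that the groups overlapped while each pair pointed up (log2 fold change 0.18 with SE 0.15, edgeR adjusted p = 0.57; 0.020 with the block). Without wild type replicate 2 its log2 fold change was 0.035, and the block did not call it without pair 1 (edgeR adjusted p = 0.16) or pair 3 (0.063). Among the clamp loader subunits RFC2 had the smallest adjusted p. Its level was 96.4, 78.7 and 92.8 CPM in wild type libraries and 113, 111 and 117 CPM in overexpressing libraries, with no overlap (log2 fold change 0.35 with SE 0.09, edgeR adjusted p = 0.068; 0.0018 with the block), and against its 50 neighbours its log2 fold change was 0.18 (edgeR adjusted p = 0.40; 0.053 with the block as well). RFC5 was higher with the block (log2 fold change 0.24, edgeR adjusted p = 0.25; 0.0095 with the block), and RFC3 and RFC4, at 0.13 and 0.16, were not. RFC1, the large subunit, stood at 267, 269.7 and 295 CPM in wild type and at 233, 262 and 261 CPM in overexpressing libraries. All of its overexpressing libraries were below all wild type libraries (log2 fold change -0.14, edgeR adjusted p = 0.42; 0.061 with the block), while the 50 nearest tested genes on chromosome 4 had a median of -0.30. Against them the log2 fold change of RFC1 was 0.16 (edgeR adjusted p = 0.43; 0.050 with the block as well, not under the threshold).

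The polymerases gave both directions. Polymerase alpha and primase start each strand, polymerase epsilon copies the leading and polymerase delta the lagging strand. POLD2, an accessory subunit of polymerase delta, stood at 228, 183 and 199 CPM in wild type and at 285, 244 and 255 CPM in overexpressing libraries, without overlap (log2 fold change 0.36 with SE 0.10, edgeR adjusted p = 0.083; 3.2e-04 with the block). POLA1, the catalytic subunit of polymerase alpha, had 109.8, 103 and 118 CPM against 121, 124 and 138 CPM, and POLE, that of polymerase epsilon, 192, 172 and 169 CPM against 216, 201 and 201 CPM. Neither overlapped between groups, and both passed with the block (log2 fold changes 0.21 and 0.22, edgeR adjusted p = 0.012 and 0.0067) but not without it (0.21 and 0.18). PRIM1, the catalytic primase subunit, was also higher with the block (log2 fold change 0.35, edgeR adjusted p = 0.14; 0.0012 with the block).

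POLD3, another accessory subunit of polymerase delta, was the single member lower with the block. It stood at 43.9, 41.9 and 44.8 CPM in wild type and at 34.7, 34.2 and 41.1 CPM in overexpressing libraries. The groups did not overlap, with overexpressing replicate 3 close to the wild type range (log2 fold change -0.25 with SE 0.10, edgeR adjusted p = 0.23; 0.027 with the block). Its 50 neighbours on chromosome 11 had a median of -0.27, and against them POLD3 had a log2 difference of 0.019 (edgeR adjusted p = 0.97; 0.90 with the block as well). The catalytic subunit POLD1, with POLA2, PRIM2 and POLE2, had log2 fold changes between -0.06 and 0.07 and passed neither fit.

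Among the genes that coat single strands and join Okazaki fragments 1 of 5 passed with the block (20%). Of all tested genes 10.7% were higher with the block and 12% lower. RPA1, the large subunit of replication protein A, was measured at 154, 139 and 159 CPM in wild type and at 203, 177 and 197 CPM in overexpressing libraries, with every overexpressing library higher (log2 fold change 0.35 with SE 0.09, edgeR adjusted p = 0.058; 5.1e-04 with the block). RPA2, its partner and the group's highest gene per kilobase, stood at 93.8, 87.2 and 101 CPM and at 98.7, 93.9 and 101 CPM, with overlapping groups (log2 fold change 0.06 with SE 0.08, edgeR adjusted p = 0.78). RPA3, the flap nuclease gene FEN1 and the ligase gene LIG1 had log2 fold changes of 0.06, 0.10 and -0.03. None of these 4 passed with the block (edgeR adjusted p between 0.25 and 0.81). The difference between RPA1 and its partners was not tested.

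Of the 4 nucleotide supply genes 3 were higher with the block (75%; 10.7% of all tested genes). TK1, the thymidine kinase of S phase, stood at 104, 71.2 and 75.0 CPM in wild type and at 132, 106 and 98.9 CPM in overexpressing libraries. Only wild type replicate 1 reached into the overexpressing range (log2 fold change 0.43 with SE 0.16, edgeR adjusted p = 0.17; 5.3e-04 with the block), and without that library TK1 was the only member called higher. RRM1, the large subunit of ribonucleotide reductase, had 154, 136 and 154 CPM against 166, 162 and 177 CPM without overlap (log2 fold change 0.19, edgeR adjusted p = 0.26; 0.020 with the block). Its small subunit gene RRM2 stood 0.29 higher on the log2 scale (edgeR adjusted p = 0.31; 0.0019 with the block).

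TYMS, the thymidylate synthase, went the other way in 2 of the 3 pairs. It stood at 307, 247 and 329 CPM in wild type and at 278, 253 and 276 CPM in overexpressing libraries, with overlapping groups (log2 fold change -0.13 with SE 0.11, edgeR adjusted p = 0.59; 0.16 with the block). The 50 nearest tested genes on chromosome 18 had a median of -0.22, and against them its log2 fold change was 0.088 (edgeR adjusted p = 0.79). Of the TYMS exons 39.1% overlap ENOSF1 on the opposite strand, which stood at 47.2 ± 5.22 and 37.3 ± 0.614 CPM (SD, n = 3), so part of the TYMS count is uncertain.

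The 3 genes that restore chromatin were all higher with the block, where 10.7% of all tested genes were. CHAF1A and CHAF1B encode the 2 larger subunits of the factor that deposits histones behind the fork. CHAF1B stood at 61.1, 49.4 and 59.3 CPM in wild type and at 68.2, 63.0 and 71.2 CPM in overexpressing libraries, without overlap (log2 fold change 0.25 with SE 0.10, edgeR adjusted p = 0.21; 0.011 with the block). CHAF1A stood at 92.7, 65.6 and 91.6 CPM and at 112, 87.5 and 108 CPM, with overlap because overexpressing replicate 2 was below wild type replicates 1 and 3 (log2 fold change 0.30 with SE 0.15, edgeR adjusted p = 0.30; 0.0028 with the block). UHRF1, which guides maintenance methylation of DNA to new strands, varied most within groups, with 118, 59.0 and 87.0 CPM in wild type against 140, 87.9 and 105 CPM in overexpressing libraries (log2 fold change 0.33 with SE 0.24, edgeR adjusted p = 0.51; 0.0033 with the block).

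The members' levels varied between replicates in a shared way. Wild type replicate 2 was the lowest wild type library for 44 of the 49 members (89.8%; 36.5% of all tested genes), and overexpressing replicate 2 was the lowest of its group for 35 (71.4%; 34.1% of all tested genes). The median deviation of the members from their own 6-library mean was -0.28 on the log2 scale in wild type replicate 2 and lay between 0.00 and 0.02 in the other wild type libraries. In overexpressing replicates 1 to 3 it was 0.17, -0.03 and 0.14, so that each overexpressing library stood above its title neighbour, and overexpressing replicate 2 stood below wild type replicates 1 and 3. The replicate 2 libraries are those numbered 09 and 10. Without wild type replicate 2 the log2 fold change was 0.19 for MCM4, 0.21 for GINS2, 0.15 for CHAF1A and 0.16 for CHAF1B, each lower than with it by a factor above 1.5. For all tested genes the median deviation was within 0.01 of 0 in every library.

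The members' pair ratios spread less than their levels did between replicates of a group. The median standard deviation of a member between replicates of a group was 0.16 on the log2 scale, and that of its 3 pair ratios was 0.094. The same medians over the 7408 tested genes within the members' range of mean CPM were 0.12 and 0.092. A ratio joins both libraries of a pair while a level comes from a single library, so these measures are not on the same scale. The median log2 ratio of the members was 0.16 in pair 1, 0.28 in pair 2 and 0.15 in pair 3, and pair 2 gave the highest of the 3 ratios in 39 members (79.6%; 39.2% of all tested genes). Without any regard to pairs, 13 members were above every wild type library in all overexpressing libraries (26.5%; 12.1% of all tested genes) and 3 were below (6.12%; 13.5% of all tested genes).

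**Figure D3:**
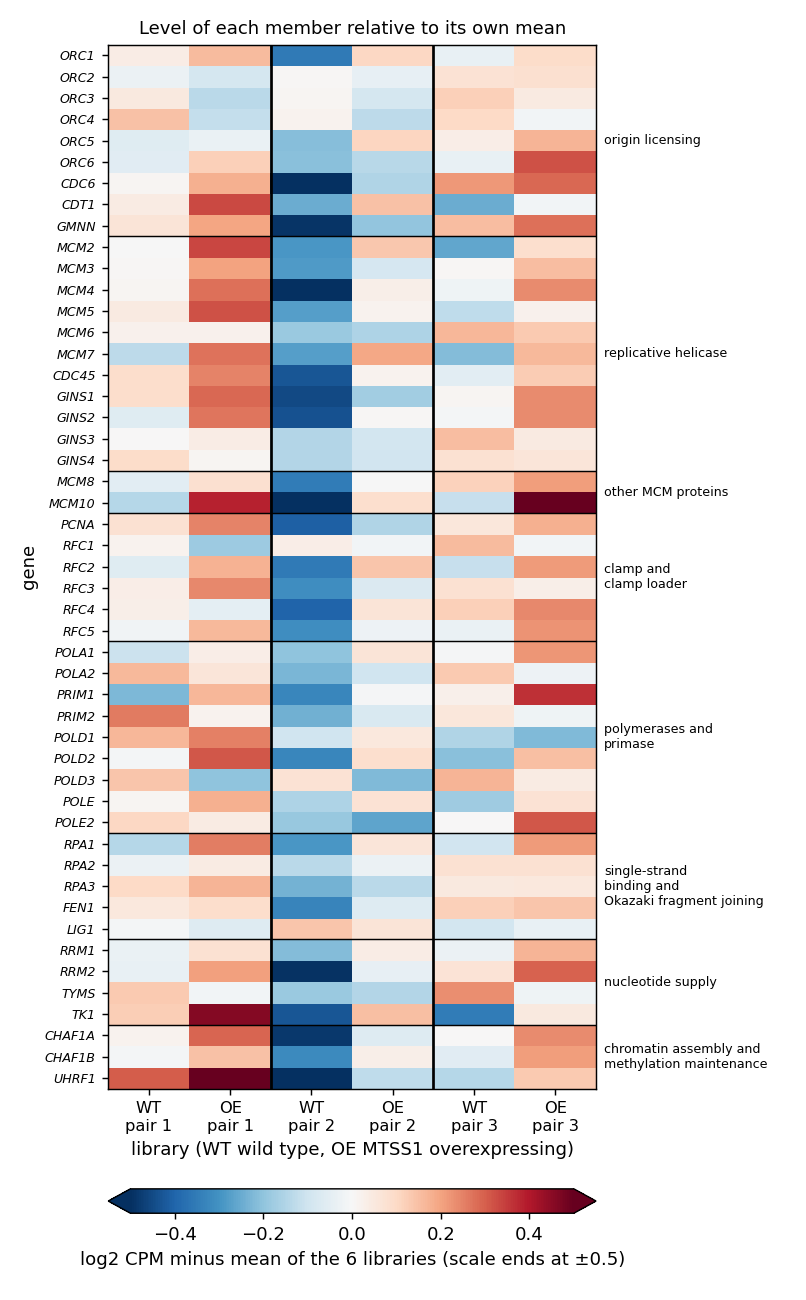
Log2 CPM of each member minus its own mean over the 6 libraries, with libraries ordered by title pair (WT wild type, OE MTSS1 overexpressing) and members by role. The wild type library of pair 2 is the bluest column, lowest of the wild type libraries for 44 of 49 members, and the right column of each pair is redder than the left for most rows.

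**Figure D4:**
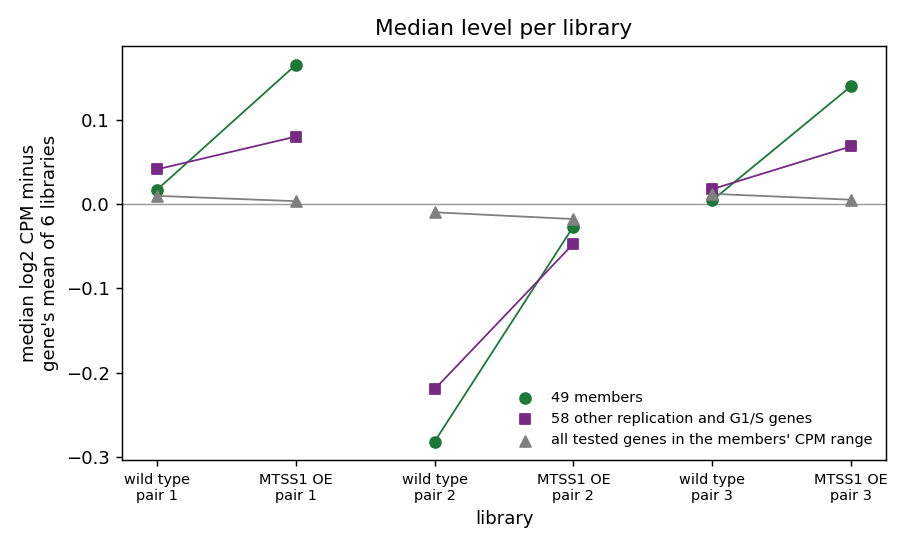
Median log2 deviation from a gene's own 6-library mean in each library for the 49 members, 58 other replication and G1/S genes, and all tested genes in the members' range of CPM, with lines joining title pairs. The members' medians run from -0.28 in the wild type library of pair 2 to 0.17 in the overexpressing library of pair 1, while the medians of all tested genes stay near 0.

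E2F-type sequences (TTTCGCGC or TTTGGCGC, on either strand) were searched in the RefSeq promoter windows, 300 bases from 250 before to 50 after each start site. Of the 49 members 43 matched a window by symbol; GINS4, MCM4, MCM5, POLD3, RPA2 and RPA3 did not. A match was found for 13 of the 43 genes (30.2%), against 1.40% of the 27305 genes in the table, and in 23.2% of the members' 56 windows against 1.15% of all 35116 windows. Base composition was not matched. CCAAT was found for 27 of the 43 members (62.8%; 39.7% of all genes), and TTTGAA, a sequence of late cell cycle promoters, for 1, RRM1 (2.33%; 18.2% of all genes). CCAAT can share at most 1 base with an E2F-type match, and E2F-type matches on opposite strands can overlap each other, as they do in MCM2 and MCM6.

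Stretches of 30 bases around the match are shown for 6 of the 13 genes, to set helicase subunits that differed in fold beside a loader, a polymerase and UHRF1. They run 5′ to 3′ on the strand of the gene, with the E2F-type letters or their reverse complement in capitals.
MCM2, chr3:127598402-127598431, plus strand: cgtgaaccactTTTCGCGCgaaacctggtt
MCM3, chr6:52284728-52284757, minus strand: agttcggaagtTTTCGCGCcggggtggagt
MCM6, chr2:135876515-135876544, minus strand: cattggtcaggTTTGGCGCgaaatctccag
CDC6, chr17:40287875-40287904, plus strand: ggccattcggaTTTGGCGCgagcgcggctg
POLE, chr12:132687342-132687371, minus strand: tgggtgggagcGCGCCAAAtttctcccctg
UHRF1, chr19:4909973-4910002, plus strand: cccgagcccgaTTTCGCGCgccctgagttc
The median log2 fold change was 0.19 for the 13 genes with an E2F-type match and 0.20 for the 30 without. With the block 10 of the 13 and 15 of the 30 were higher, where 10.7% of all tested genes were. For CCAAT the medians were 0.23 in the 27 genes with the letters and 0.086 in the 16 without. Under the block 21 of the 27 and 4 of the 16 were higher, again beside 10.7% of all tested genes. These are descriptions of letters in a window, given without a test.

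A second list of 58 genes held other replication factors and the E2F and G1/S control genes, and all 58 were tested. Of these, 3 were higher and none lower (9 higher and 5 lower before adjustment, 24.1% in either direction against 19.8% of all tested genes; 5 and 1 with DESeq2, where 3.25% and 4.12% of all tested genes were higher and lower), a share of 5.17% against 4.28% of all tested genes, with a median log2 fold change of 0.089. With the block 16 were higher and 5 lower (27.6% and 8.62%; 10.7% and 12% of all tested genes). DBF4B, an activator of the CDC7 kinase that fires origins, stood at 51.2, 42.4 and 44.9 CPM in wild type and at 69.0, 61.3 and 60.3 CPM in overexpressing libraries (log2 fold change 0.46 with SE 0.10, edgeR adjusted p = 0.038; 4.2e-04 with the block). TIMELESS, which steadies the moving fork, stood at 248, 227 and 244 CPM and at 311, 320.3 and 304 CPM (log2 fold change 0.38 with SE 0.08, edgeR adjusted p = 0.027; 4.7e-04 with the block). Neither overlapped between groups. CCNE1, the cyclin that drives entry into S phase, was the third, at 17.5, 11.1 and 16.3 CPM against 25.3, 26.5 and 27.8 CPM (log2 fold change 0.83 with SE 0.17, edgeR adjusted p = 0.027; 9.0e-04 with the block). Without 1 library, DBF4B kept its call in 1 of 6 fits, TIMELESS in none (edgeR adjusted p up to 0.096) and CCNE1 in 2.

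By function, origin firing held the largest share of calls on this second list with the block: 5 of 8 genes were higher (62.5%; 10.7% of all tested genes) and TICRR lower. The fork factors gave 4 higher and 2 lower of 19 (21.1% and 10.5%; 10.7% and 12% of all tested genes), among the lower ones TOP1, the topoisomerase that relaxes DNA ahead of the fork (log2 fold change -0.25). Other replication-coupled chromatin gave 2 higher and 1 lower of 5 genes (40% and 20%). Other nucleotide supply gave 2 higher and 1 lower of 8 (25% and 12.5%), both beside the same shares of all tested genes. Of 18 E2F and G1/S genes, 3 were higher with the block and none lower (16.7% higher; 10.7% and 12% of all tested genes). Among the E2F genes themselves, E2F1 and E2F3 had log2 fold changes of 0.14 and -0.16 and passed neither fit, and E2F2 had 0.49 (edgeR adjusted p = 0.11; 0.0011 with the block). These genes were picked out after their values were seen.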

How the data were processed

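The authors deposited raw read counts for each Ensembl identifier in 6 libraries. Per the submitters' processing notes, bcl2fastq, HISAT2 2.1.0, HTSeq and GRCh38 were used; HTSeq's strand setting and annotation release: not given in the sources used here. Per the labels' protocols, libraries were made from poly(A) RNA with a directional kit and read from 1 end for 50 cycles. Symbols came from the supplied name table, and coordinates and union exon lengths from GENCODE on GRCh38. The main test of these counts was edgeR 4.0.16 under R 4.3.3 (TMM, filterByExpr, glmQLFit and glmQLFTest, two-sided, Benjamini-Hochberg over all tested genes, threshold 0.05), and the pipeline was tested on simulated data. SEs derive from the F statistic. Log2 CPM used a prior count of 2. Alternatives were DESeq2 1.42.0, RLE factors, no filter, libraries left out, the title pair as a replicate block, and an offset by the median of 50 chromosomal neighbours. Deviations from group means correlated at 0.66, 0.34 and 0.38 across genes within the title pairs, and between -0.40 and 0.10 across them. The 3 deviations of a group sum to 0, so positive values within pairs by themselves push those across pairs down. Named with values in every library were members past the threshold, members past it with the block and without overlap, and, in each role group, those with the smallest adjusted p or the highest CPM per kb; ORC1, ORC4, MCM6, RFC1 and UHRF1 were added after their values were seen. Members, lists and rules were chosen with earlier results of these data known. One gene of the HEK293T marker list, and so the sum of that list, is not reported here.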

Additional observations from a re-analysis of the deposited data

How the results depend on the processing

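With 1 library left out, the number of changed genes lay between 145 and 346, that of members between 0 and 1 (8 to 20 at an unadjusted p under 0.05), that of the 58 other genes between 0 and 2 (11 to 14 unadjusted), and the members' median log2 fold change between 0.091 (without wild type replicate 2) and 0.25. Without both libraries of title pair 1 the counts were 132, 0 and 0 (10 members and 9 other genes unadjusted). They were 1489, 11 and 8 with no filter on low counts, where all 28676 identifiers with any count were tested, and 1188, 6 and 6 with DESeq2. The neighbour offset gave 337, 0 and 1 (6 members unadjusted). With the title pair as a replicate block they were 3651, 28 and 21, with the neighbour offset added to this block 2466, 17 and 20, and with 1 title pair left out of it (chosen after seeing the data) 1409, 14 and 7 for pair 1, 5199, 32 and 31 for pair 2, and 2478, 18 and 16 for pair 3. With 2 pairs the block leaves 1 residual degree of freedom. Where unadjusted counts are given here, the share of all tested genes in the same fit is not given, so they have no background beside them. In the main fit the unadjusted counts were 16 members and 14 other genes, beside 19.8% of all tested genes. The neighbour offset turned the log2 fold change of POLD3 to 0.019 and of TYMS to 0.088, and with the replicate block as well to 0.017 and 0.098. This offset also changed the sign of ORC3 (to 0.13), ORC5 (-0.039), MCM6 (0.072), GINS4 (0.033) and RFC1 (0.16), none of which passed edgeR in any of these fits with all 3 pairs. RLE factors gave 684 genes and the same counts for both lists. A prior count of 0.5 moved no pair median by more than the spread between pairs. The causes were not tested. The lowest count of a member in any library was 309.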
